A study of Mus musculus with 32 samples.

Results

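Chromatin regions present in only 1 of a pair of ATAC-seq peak lists, ZBT-OE SSDS and GFP SSDS, are described for chromosomes 1 to 19. The lists come from orbitofrontal cortex (OFC) astrocytes of mildly stressed mice with and without ZBTB7A overexpression. A peak of the first list without even 1 bp of overlap in the second counts as opened, and a peak of the second without overlap in the first counts as closed. Opened peaks numbered 377 of 1199 in the ZBT-OE SSDS list (31.4%, 95% Wilson interval 28.9 to 34.1), and closed peaks numbered 356 of 1283 in the GFP SSDS list (27.7%, 25.4 to 30.3). These 733 peaks were drawn from 2482 in both lists and from 16174 in the 6 lists of the series. The words opened and closed describe presence in a list and not a measured change of signal, since the fold enrichment of a peak is comparable only within its own list.

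Both groups were young adult male C57BL/6J mice that received an AAV6 vector in the OFC and were then exposed for 1 day to social defeat at a subthreshold level (SSDS). In ZBT-OE SSDS mice the vector carried ZBTB7A under the GFAP promoter, which directs expression to astrocytes, and in GFP SSDS mice it carried GFP under the same promoter. Each group held 6 samples, each a pool of mice, from which astrocytes were sorted with magnetic beads against ACSA-2. The labels give the virus of each sample and leave its stress group blank, so the stress comes from the description of the study. Unstressed mice of this cohort were not analysed here, so every difference described is between viruses in stressed animals. Each group has a single list, so no difference below has a replicate check. The intervals cover counting error over peaks, and how far a second set of mice would differ is unknown.

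ZBTB7A, also called LRF, is a BTB zinc finger transcription factor that recruits corepressors, binds GC-rich promoters and has been tied to the accessibility of NF-kB target genes. ATAC-seq marks chromatin that a transposase can enter, and such open chromatin is usually found at promoters and enhancers of genes in use. Astrocytes clear glutamate and potassium around synapses, supply neurons with metabolites, and turn reactive in inflammation and stress.

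Opened peaks lay over the starts of genes. At least 1 protein-coding transcription start site (TSS, the 5′ end of the gene in the GENCODE M21 annotation) fell inside 264 of 377 opened peaks (70.0%, 65.2 to 74.4) and inside 66 of 356 closed peaks (18.5%, 14.8 to 22.9). The difference was 51.5 percentage points (95% Newcombe interval 45.0 to 57.2). Peaks present in both groups were intermediate, at 43.4% of the 822 shared peaks of the ZBT-OE SSDS list and 39.8% of the 927 of the GFP SSDS list. Some part of a coding gene body was covered by 310 opened peaks (82.2%) and 140 closed peaks (39.3%), a difference of 42.9 points (36.3 to 49.0).

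The opened peaks also gathered several genes at a time. A pair of coding TSSs or more was covered by 181 opened peaks (48.0%) against 17 closed peaks (4.78%), and 3 or more were covered by 118 (31.3%) against 2 (0.562%). The fullest opened peak held 9 and the fullest closed peak 4. Per Mb of peak, opened chromatin held 48.3 coding TSSs and closed chromatin 8.04, while the autosomes as a whole held 8.45 and the shared peaks 7.38 and 7.05 in the ZBT-OE SSDS and GFP SSDS lists. The 500 kb on either side of a peak carried 21.4 TSSs per Mb for opened and 7.38 for closed peaks, so opened peaks sat in gene-dense neighbourhoods and were denser still than those neighbourhoods.

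**Figure D1:**
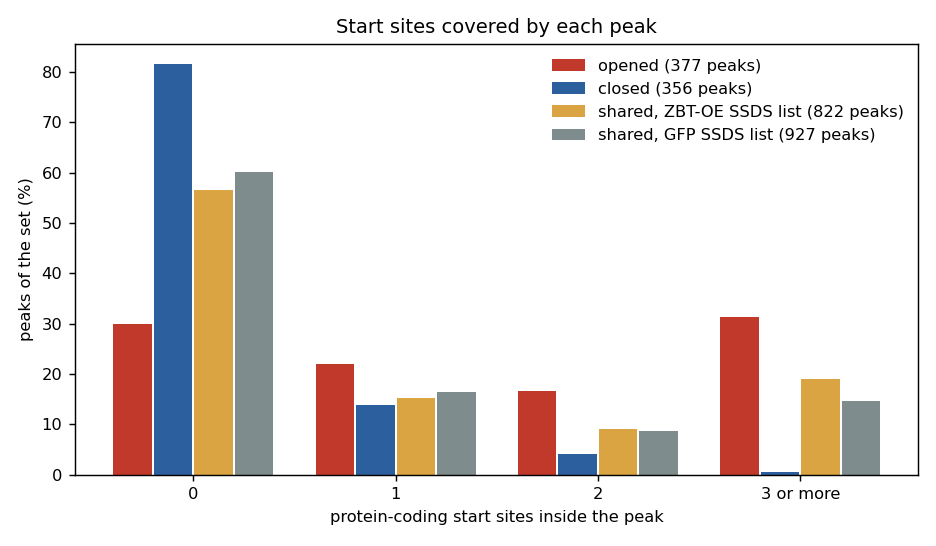
Percentage of peaks in each set (y axis) that hold 0, 1, 2, or 3 or more protein-coding start sites (x axis), for opened, closed and shared peaks of the overexpression lists. Opened peaks are the set with the fewest empty peaks and the most peaks with 3 or more start sites (31.3%), and closed peaks have almost none of the latter (0.562%).

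Over all 20807 coding genes of the autosomes, 831 had some of their body in an opened peak (3.99%) and 702 had their TSS there (3.37%). For closed peaks the counts were 154 genes by body (0.74%) and 86 by TSS (0.413%). These percentages are the background against which each gene group below is read. Of the 831 genes under opened peaks, 409 (49.2%) lay wholly inside the peak, compared with 29 of 154 (18.8%) under closed peaks. The genes whose TSS was opened had a median length of 10.7 kb against 17.6 kb for those closed and 17.6 kb for all coding genes. The genes with a TSS in shared peaks were shorter still, at 9.26 kb and 8.86 kb in the ZBT-OE SSDS and GFP SSDS lists. Only 7 genes were touched in both directions by different peaks, namely Arf3, Egfem1, Gm20388, Kcnh5, Smarcc1, Styxl1 and Sugct.

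The gene that the deposited annotation gives as nearest to a peak captured only some of this. Of the 702 genes with an opened TSS, 240 were listed as the nearest gene of a peak, so most of the genes described here would be missed from that column. For closed peaks the figure was 57 of 86.

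Opened peaks tended to begin and end at gene starts. Of their 754 edges, 287 (38.1%, 34.7 to 41.6) lay within 500 bp of a coding TSS, against 42 of 712 closed edges (5.90%, 4.39 to 7.88). The edges of shared peaks were at 4.74% and 3.29% in the ZBT-OE SSDS and GFP SSDS lists, and 0.804% of the autosomes lies that close to a coding TSS. Both edges were at a TSS in 76 opened peaks (20.2%) and 7 closed peaks (1.97%). Ezh1, a histone H3 lysine 27 methyltransferase, and Polr2e, a subunit shared by the nuclear RNA polymerases, were covered over 0.204% and 0.702% of their bodies because their opened peaks ended just past the start. A further 78 coding genes had their TSS outside an opened peak but within 1 kb of it, and 17 did so for closed peaks. Among the 78 were Slc1a2 and C4b, described below.

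Peak width and base composition differed between the sets and are given beside the gene content. The median width was 29809 bp (20269 to 400730) for opened and 15599.5 bp (8473 to 487424) for closed peaks. The narrowest peak of the ZBT-OE SSDS list was 20269 bp and that of the GFP SSDS list 8473 bp, and what set these widths is not known. Among peaks from 20269 up to 30000 bp, 131 of 191 opened peaks (68.6%) and 7 of 51 closed peaks (13.7%) covered a TSS. Above 50000 bp the shares were 80.0% and 20.5%. The contrast in TSS cover was therefore present at matched width.

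The GC content of opened peaks was 46.7% at the median, against 40.2% for closed peaks, 39.8% and 39.97% for the shared peaks, and 41.9% for the autosomes. Within GC classes, TSS cover was 23.3% of opened and 7.02% of closed peaks below 40% GC. It was 59.4% and 14.9% from 40 to 45% GC, and 83.9% and 52.8% from 45 to 50% GC. At 50% GC and over, the 84 opened peaks were at 82.1% and the 11 closed peaks at 72.7%, with intervals that overlapped (72.6 to 88.9 and 43.4 to 90.3). The shared peaks of the ZBT-OE SSDS list stood at 26.9%, 57.3% and 82.5% in the 3 lower classes, with intervals that overlapped those of opened peaks. Those shared peaks were far wider, with a median of 162320 bp. Per Mb of peak they held 9.56 coding TSSs from 40 to 45% GC and 23.7 from 45 to 50% GC. Opened peaks held 29.6 and 68.5 there, and closed peaks 6.89 and 47.2. Below 40% GC the densities were 7.91 for opened and 2.53 for closed peaks. At 50% GC and over the order turned, with 71.9 for opened peaks and 76.8 for the 11 closed peaks. The contrast in TSSs per Mb between opened and closed peaks was therefore not kept in the class of highest GC content. Opened peaks also held less repeat-masked sequence, with a median of 30.6% against 39.6% for closed peaks. Whether GC content affected the peak calls was not tested.

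**Figure D2:**
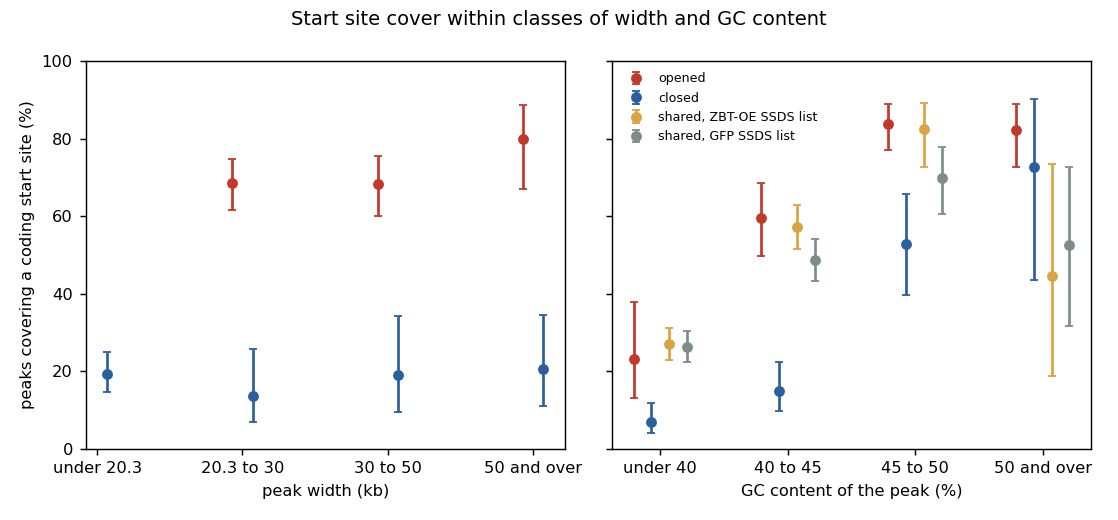
Percentage of peaks that cover a coding start site (y axis) by class of peak width in kb (left) and of GC content in percent (right), with 95% Wilson intervals as bars. Opened peaks lie above closed peaks in every width class they share, while in GC classes up to 50% they lie close to the shared peaks of the ZBT-OE SSDS list.

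The opened peaks favoured the gene-rich chromosomes. The 5 autosomes with most coding genes per Mb, which are 7, 11, 19, 17 and 2 in falling order, held 138 opened peaks (36.6%, 31.9 to 41.6) and 64 closed peaks (18.0%, 14.3 to 22.3). Shared peaks stood at 20.6% and 20.7% there, and the same chromosomes make up 24.6% of autosomal length and carry 35.0% of the coding genes. On the 5 gene-poorest autosomes, 16, 3, 1, 18 and 12, the order turned, with 66 opened peaks (17.5%, 14.004 to 21.7) and 100 closed peaks (28.1%, 23.7 to 33.0) on 27.0% of the length.

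Chromosome 11 gave the highest density of opened peaks, 3.03 per 10 Mb, with 37 opened and 7 closed. There, 63.8% of the 58 ZBT-OE SSDS peaks were opened, and 84 coding TSSs were covered. Chromosome 19 held 14 opened peaks and 1 closed, and 13 of the 14 covered a TSS. Chromosome 7 held 39 and 19, chromosome 17 held 23 and 14, and chromosome 9 held 29 and 12. Chromosome 2, the last of the gene-rich set, was nearly balanced, with 25 opened and 23 closed peaks.

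Closed peaks outnumbered opened peaks on chromosomes 1, 3, 6, 8, 10, 12, 13, 14, 16 and 18. Among these, chromosome 3 held 24 opened and 39 closed peaks, and chromosome 6 held 13 and 33. Chromosome 12 held 8 and 17, and chromosome 14 held 5 and 17. Even on chromosome 3 the opened peaks kept their gene content, since 18 of 24 covered a TSS, compared with 2 of the 39 closed peaks. Across the 19 autosomes, opened peaks per 10 Mb went with coding genes per Mb at a Pearson's r of 0.85 and a Spearman's rho of 0.85, and at 0.77 and 0.79 without chromosomes 7 and 11. For closed peaks r was -0.42 and rho -0.20. These are descriptions over chromosomes that share the same libraries, and gene density and GC content vary together along them.

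**Figure D3:**
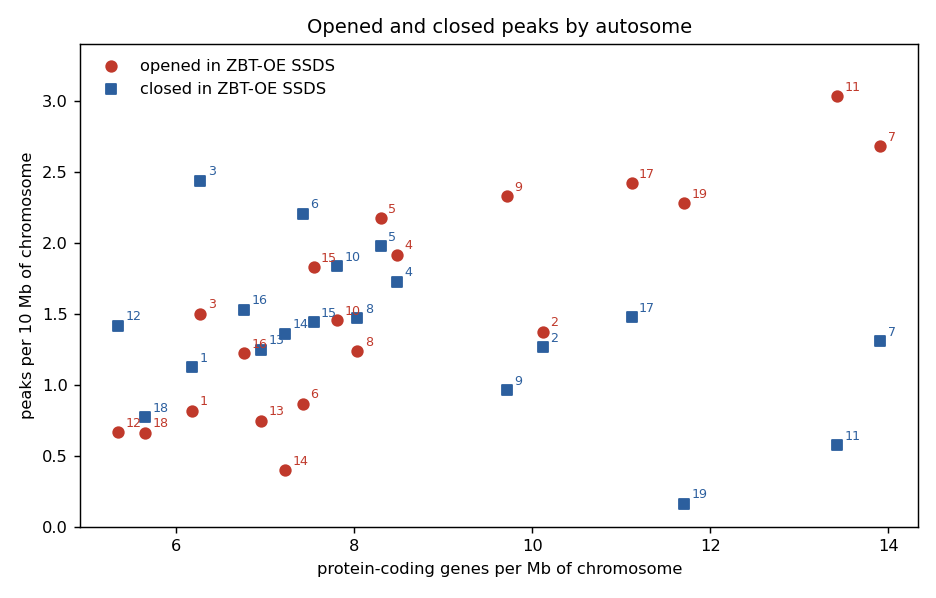
Peaks per 10 Mb of chromosome (y axis) against protein-coding genes per Mb (x axis), with each autosome as a red circle for opened and a blue square for closed peaks, labelled by its number. Opened peaks are densest on the gene-rich chromosomes 11 (3.03 per 10 Mb) and 7 (2.68), where closed peaks number 0.573 and 1.31 per 10 Mb.

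Opened peaks clustered in a few gene-dense stretches. Within windows of 3 Mb, the fullest cluster lay on chromosome 10 (mm10 chr10:79314452-81350677), where 9 opened peaks and no closed peak covered 326.173 kb and 27 of 113 coding TSSs. Its genes included Gpx4, the glutathione peroxidase that protects membranes from lipid peroxidation, Cirbp, a cold-inducible RNA-binding protein, Efna2, an ephrin ligand, Gng7 and Tbxa2r. Zbtb7a itself lies in that stretch (chr10:81135220-81152995, plus strand), and neither list placed a peak on it. Its nearest ZBT-OE SSDS peak was 97.864 kb away and its nearest GFP SSDS peak 522.357 kb away. The lists therefore give no check of the overexpression, which was made by a vector and not by the endogenous locus.

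A stretch of chromosome 17 (chr17:33817559-36121707) held 8 opened peaks, no closed peak and 20 of 138 coding TSSs. It runs through the mouse major histocompatibility complex, and none of the 34 protein-coding genes in the H2 list was touched by an opened or closed peak. That count does not take in every H2 locus. The deposited annotation gives H2-Bl as the nearest gene of an opened peak there (chr17:36066194-36121707), with a distance to TSS of -9701 bp. Coding genes covered there included Tapbp, the tapasin chaperone of peptide loading, Daxx, a chaperone of histone H3.3, Rps28, Tubb5 and Mdc1, a DNA damage mediator. On chromosome 5 (chr5:134409956-136791160) there were 8 opened and 2 closed peaks, with 9 opened TSSs. Some of these, Clip2, Stx1a, Tbl2, Bcl7b and Baz1b, belong to the region syntenic to the human Williams syndrome locus. Stx1a is a presynaptic syntaxin, and Baz1b a chromatin remodelling subunit.

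On chromosome 7 (chr7:126475160-128955546) 7 opened peaks with a summed width of 516.168 kb, beside 1 closed peak, covered 24 TSSs, including Aldoa, a glycolytic aldolase, Ppp4c, a protein phosphatase subunit, and Tufm, the mitochondrial elongation factor. On chromosome 11 (chr11:98751935-101665628) 7 opened peaks covered 19 of 144 TSSs, among them Acly, which makes cytosolic acetyl-CoA, Ezh1, Coasy and Rpl27. On chromosome 3 (chr3:87885596-90265827) 7 opened peaks, beside 1 closed peak, covered 19 of 92 TSSs, among them Shc1, a signalling adaptor, and Crtc2, a CREB coactivator. A second stretch of chromosome 5 (chr5:121452362-124143803) held 6 opened peaks over 12 of 63 TSSs, including Aldh2, the mitochondrial aldehyde dehydrogenase, and Camkk2, a calcium-dependent kinase. A stretch of chromosome 9 (chr9:19768158-21956065) held 6 opened and 2 closed peaks, and 7 of its 18 opened TSSs belonged to olfactory receptors.

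Clusters of closed peaks covered few starts. The fullest window, on chromosome 3 (chr3:44242268-47225596), held 9 closed peaks and no opened peak, and none of them covered either of the 2 coding TSSs in that span. Closed peaks also covered no TSS in stretches on chromosomes 13 (chr13:14703126-16868114, 7 closed beside 2 opened peaks) and 14 (chr14:114214205-117166709, 6 closed peaks). A stretch of chromosome 4 (chr4:105298788-107646799) holds 25 coding TSSs, and its 6 closed peaks covered none of them. On chromosome 16 (chr16:70304070-71490361), 6 closed peaks covered the 1 coding TSS in the span, that of Gbe1. A cluster on chromosome 6 covered more genes (chr6:134718399-134983857). There, 6 closed peaks with a summed width of 183.202 kb covered 4 of the 5 coding TSSs in the span, those of Dusp16, a phosphatase of MAP kinases, Crebl2, Cdkn1b, the cyclin-dependent kinase inhibitor p27, and Apold1. Dusp16 was covered over 69.2% of its body by 3 separate closed peaks.

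The opened peaks with most genes are given next. A peak at chr17:35829866-35916913 (fold enrichment 2.103) covered the TSSs of 9 genes, Tubb5, Mdc1, Nrm, Ppp1r18, Dhx16, 2310061I04Rik, Atat1, Mrps18b and Ppp1r10. Tubb5 is a beta-tubulin and Atat1 the alpha-tubulin acetyltransferase. A peak at chr11:101417228-101479581 (3.11) held 8, among them Rpl27, Vat1 and Ifi35, an interferon-induced protein. A peak at chr19:8871471-8898094 (1.93) also held 8, including Ints5, an Integrator subunit, Ganab, a glucosidase of glycoprotein folding, and Uqcc3 of the respiratory chain.

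At chr3:96220934-96278221 (fold enrichment 1.39) an opened peak covered 8 replication-dependent histone genes of the Hist2 cluster, Hist2h2be, Hist2h3c2, Hist2h2aa2, Hist2h2aa1, Hist2h3c1, Hist2h4, Hist2h3b and Hist2h2bb. These near-identical copies attract reads that cannot always be placed uniquely, so the height there is uncertain. The other dense opened peaks, with 7 TSSs each, were at chr3:90213522-90265827 (2.18; Rps27, Rab13, Jtb, Creb3l4, Slc39a1, Crtc2 and Dennd4b) and at chr5:31180000-31241437 (2.07; Gtf3c2, Eif2b4, Snx17, Zfp513, Ppm1g, Gm9970 and Nrbp1). Eif2b4 is a subunit of the exchange factor that the integrated stress response acts on.

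The strongest opened peaks that covered a TSS were shorter and held fewer genes. The highest, at chr3:14611230-14641853 (fold enrichment 3.38), covered Car13, a carbonic anhydrase, and 1810022K09Rik. Next came chr12:69159063-69197272 (3.35), with Rps29, Lrr1, Rpl36al, Gm49383 and Mgat2. It was followed by peaks over Ssr3 (3.27), Dhx36 (3.26), Snx33 with Imp3 and Snupn (3.25), Ube4b (3.21), Zc3h7b (3.15) and Atg4c (3.13). Dhx36 unwinds G-quadruplexes, Ube4b is a ubiquitin chain assembly factor, and Atg4c processes ATG8 proteins in autophagy. Over all opened peaks the fold enrichment ran from 1.22 to 3.38 with a median of 1.80, below the median of 2.32 of the shared peaks in the same list.

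Long genes were covered whole by opened peaks in 3 cases, taking genes of 50 kb or more with 90% of the body covered. These were Sfi1, a centrosomal protein, Inpp5f, an inositol phosphatase of endosomes, and Tinag. Tinag lies in the widest opened peak, chr9:76677016-77077745 (400730 bp). No closed peak covered a long gene whole. The widest closed peak, chr1:8688353-9175776 (487424 bp), crossed part of Sntg1 and covered no TSS.

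Of the 66 closed peaks over a TSS, 49 covered a single one. The peak with most TSSs, chr16:45056433-45319821 (fold enrichment 2.54), covered Ccdc80, Slc35a5, Atg3 and Btla. Atg3 is the conjugating enzyme for ATG8 proteins, and Btla an inhibitory lymphocyte receptor. The peak at chr4:116708292-116721288 (2.67) covered Mmachc, which processes vitamin B12, with Ccdc163 and Tesk2. Pairs of TSSs were covered at Gpr15 and Cldnd1 (2.72), Ube2z and Atp5g1 (2.22), Gmeb1 and Taf12 (2.04), and Ndufaf3 and Dalrd3 (1.97). Gmeb1 binds the glucocorticoid modulatory element, and Atp5g1 encodes subunit c of ATP synthase. The highest closed peaks over single TSSs were at Vmn1r47 (2.90), Khdc4 (2.76), Swi5 (2.54), Wasl (2.43) and Zfp1 (2.40). Wasl, or N-WASP, nucleates branched actin.

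Gene groups were then read by function, each count being set against the 3.99% of all coding genes under opened peaks and the 0.74% under closed peaks. Neighbouring members can share a peak, so the counts within a group are not independent, and no test was made of any group. Cytoplasmic ribosomal protein genes were covered by opened peaks in 15 of 95 cases (15.8%), through 14 separate peaks on many chromosomes, and by closed peaks in 0 of 95. Their TSSs were inside the peak for 14 of the 15, Rpl41, Rpl23a, Rpl23, Rpl27, Rps29, Rpl36al, Rps2, Rpl10a, Rps28, Rpl7a, Rps27, Rpl13a, Rpl13 and Rps25, and Rplp2 was covered without its start. The fold enrichment of these peaks ran from 1.30 at Rpl13a to 3.35 at Rps29 and Rpl36al. Processed copies of ribosomal protein genes are common in the genome, and only unique reads were kept, so the heights at these loci are uncertain.

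Histone genes were opened in 9 of 79 cases (11.4%), but through only 2 peaks, the Hist2 cluster and H2afx, which encodes the H2A variant phosphorylated at DNA breaks. Tubulins were opened in 4 of 17 cases (23.5%) through 3 peaks, at Tuba4a (fold enrichment 1.67), Tuba1b with Tuba1a (2.24) and Tubb5 (2.103). The proteasome list had 4 of 39 opened, Psmb4, Psmb5, Psmb11 and Psmc3ip, of which the last is a meiotic recombination factor and no subunit. Subunits of Mediator and the RNA polymerases were opened in 5 of 56 cases (8.93%), Polr2e, Polr2g, Polr2l, Med8 and Med22. For NADH dehydrogenase and cytochrome c oxidase genes the count was 4 of 70 opened (5.71%), Ndufa7, Ndufb2, Cox8a and Cox19, with Ndufaf3 closed. The lists of mitochondrial ribosomal proteins (7 of 78), translation factors (4 of 65) and splicing factors (6 of 45) were added after these values were seen, and none of their members was closed. Zinc finger genes of the Zfp, Zkscan, Zscan and Zbtb kind were opened in 25 of 455 cases (5.49%) and closed in 7, and Zbtb3, Zbtb6, Zbtb9, Zbtb22, Zbtb26 and Zbtb48 were among those opened.

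Solute carriers were opened in 12 of 358 cases (3.35%) and closed in 2, and ion channel subunits in 5 of 164 (3.05%) and 1, shares near the background. None of the 5 channel genes, Kcnb2, Kcnh5, Kcnab1, Clcn2 and Clcn4, had its TSS in the peak. Neurotransmitter receptors had 1 of 91 opened, the NMDA receptor subunit Grin3b, and cadherins and protocadherins had Cdh24 opened and Cdh12 closed out of 95. Cytokines, chemokines and their receptors had 3 of 151 opened, Ifnar1, Il11ra1 and Ccl27a. Olfactory receptors were opened in 8 of 1128 cases (0.709%) and closed in 5, and vomeronasal receptors in 1 of 329 (0.304%) and 5 (1.52%). The full ZBT-OE SSDS and GFP SSDS lists covered many more, 191 and 199 olfactory receptors and 102 and 108 vomeronasal receptors. Of all 20807 coding genes, 1722 and 1632 had some of their body under the shared peaks of those lists. The Hox (39), keratin (53) and H2 (34) lists had no member under an opened or closed peak.

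**Figure D4:**
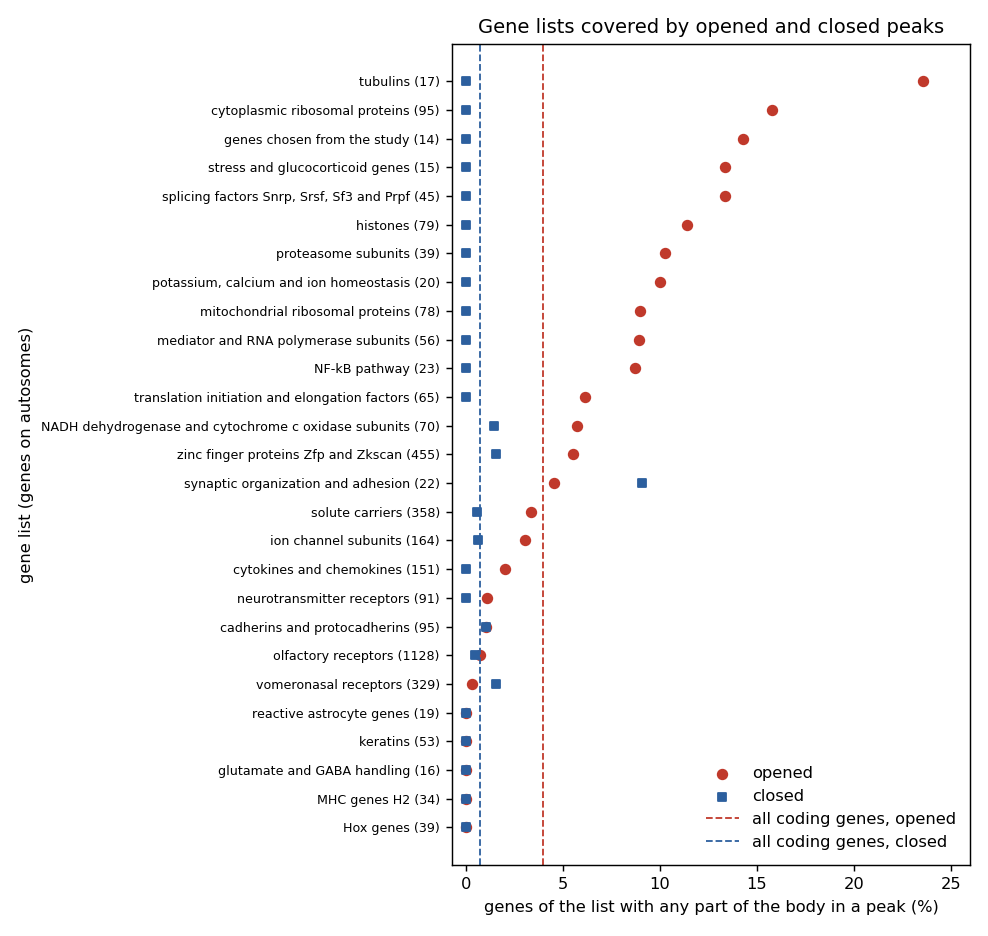
Percentage of the genes in each list (x axis) with any part of the body in an opened (red circles) or closed (blue squares) peak, for lists (y axis) with their number of autosomal genes in brackets, and dashed lines for all coding genes (3.99% and 0.74%). Tubulin (23.5%) and ribosomal protein (15.8%) genes lie farthest right, and the neurotransmitter receptor, cadherin and olfactory receptor lists lie left of the opened background.

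The cell type was checked against its markers. Among 12 astrocyte markers, an opened peak covered only Atp1b2, the sodium pump subunit that is itself the ACSA-2 antigen used for the sort. That peak (chr11:69579324-69633018, fold enrichment 2.89) also held the TSSs of Wrap53, Trp53, Shbg, Sat2 and Fxr2. Gfap, Aldh1l1, Aqp4, Slc1a3, Gja1, S100b, Sox9, Aldoc, Glul and Fgfr3 were in neither set. None of 10 neuron, 10 microglia, 10 oligodendrocyte and 10 endothelial markers was in an opened or closed peak. In the full lists, the neuron marker Map2 was covered in both groups, so the lists as a whole carry little evidence of any cell type. The markers therefore neither bear out nor go against the astrocyte label.

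Slc1a2, the astrocyte glutamate transporter GLT-1, came closest after Atp1b2. An opened peak (chr2:102620746-102658452, fold enrichment 1.45) ended 0.207 kb before its TSS (chr2:102658659-102790784, plus strand), and the nearest GFP SSDS peak was 1984.14 kb away. By the overlap rule it was not covered, and the list of 16 genes for glutamate and GABA handling had 0 members in either set. Similarly, an opened peak began 0.007 kb upstream of the complement gene C4b without covering it. The list of 19 reactive astrocyte genes had 0 members opened or closed.

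In the NF-kB list 2 of 23 genes were opened (8.70%) and 0 closed. Myd88, the adaptor of Toll-like and interleukin-1 receptors, lay wholly inside chr9:119322764-119357586 (fold enrichment 1.37), and the TSS of Traf2, an adaptor of TNF receptors, lay inside chr2:25534353-25557880 (2.32). Relb was covered in both groups' lists. Of 20 ion homeostasis genes, 2 were opened (10%), Atp1b2 and the chloride channel Clcn2 (chr16:20672723-20712914, 1.33). Of 22 genes for synaptic organization, Mertk, a phagocytic receptor by which astrocytes engulf synapses, had its TSS opened (chr2:128687406-128709567, 1.53). Gpc6 and Sparcl1, secreted astrocyte proteins that promote synapses, were each crossed by a closed peak away from the TSS, over 3.36% and 24.5% of the gene.

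In the list of 15 stress and glucocorticoid genes, 2 were opened (13.3%), Nr4a1 and Fkbp5, and none closed. With lists this short, a pair of genes sets the percentage. Nr4a1, an immediate-early nuclear receptor, lay wholly inside chr15:101246328-101284008 (fold enrichment 2.19). Fkbp5 encodes a cochaperone of the glucocorticoid receptor and has more than a single start. An opened peak (chr17:28450515-28486339, 2.94) covered 30.2% of the gene and reached into the promoter that RefSeq places at chr17:28486100-28486399. The GENCODE start lay in another ZBT-OE SSDS peak, which counts as shared because it meets a GFP SSDS peak elsewhere. No GFP SSDS peak covered that start, and the nearest was 44.354 kb from the gene. Of other genes chosen because the study discusses them, Tiam1, Pcbp3, Enpp2, Cxcl12, Dusp6, Nr4a2 and Hsd17b7 were more than 200 kb from any peak of either list.

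Promoters of the covered genes were compared by sequence, because ZBTB7A recognises a GC-rich core with the letters GGGTC. RefSeq promoter windows of the GRCm38.p6 build, 250 bases before to 50 bases after a start, were matched for 564 of the 702 opened genes, 75 of the 86 closed genes and 15703 of all 20807. GGGTC, or GACCC on the other strand, was present in 305 opened promoters (54.1%, 49.95 to 58.1), 28 closed promoters (37.3%, 27.3 to 48.6) and 47.3% of all promoters. Median promoter GC content was 60.0% for opened, 57.7% for closed and 57.3% for all genes. At least 10 CpG dinucleotides were present in 85.6% of opened, 72.0% of closed and 60.2% of all promoters. The letters are more frequent where GC content is high, and occurrence of the motif at matched GC content was not tested.

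The promoters below are shown for opened genes with the core in capitals (Fkbp5, Tuba1b and Mertk), for an opened ribosomal protein gene without it (Rpl27) and for a closed gene without it (Cdkn1b). They lie at chr17:28486100-28486399 (minus strand), chr15:98934341-98934640 (minus), chr2:128698665-128698964 (plus), chr11:101441995-101442294 (plus) and chr6:134920151-134920450 (plus). Each is read 5′ to 3′ on the strand of its gene.
Fkbp5: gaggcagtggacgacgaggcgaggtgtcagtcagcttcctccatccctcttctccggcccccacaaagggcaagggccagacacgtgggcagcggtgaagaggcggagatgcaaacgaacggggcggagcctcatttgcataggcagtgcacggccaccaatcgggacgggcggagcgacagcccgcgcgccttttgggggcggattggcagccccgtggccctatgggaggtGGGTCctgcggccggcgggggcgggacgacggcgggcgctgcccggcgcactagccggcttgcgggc
Tuba1b: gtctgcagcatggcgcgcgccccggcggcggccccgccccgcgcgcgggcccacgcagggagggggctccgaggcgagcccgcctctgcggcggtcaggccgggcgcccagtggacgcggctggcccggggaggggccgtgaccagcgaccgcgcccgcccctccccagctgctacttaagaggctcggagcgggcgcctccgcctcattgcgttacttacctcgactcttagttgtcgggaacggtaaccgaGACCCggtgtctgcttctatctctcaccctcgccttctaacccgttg
Mertk: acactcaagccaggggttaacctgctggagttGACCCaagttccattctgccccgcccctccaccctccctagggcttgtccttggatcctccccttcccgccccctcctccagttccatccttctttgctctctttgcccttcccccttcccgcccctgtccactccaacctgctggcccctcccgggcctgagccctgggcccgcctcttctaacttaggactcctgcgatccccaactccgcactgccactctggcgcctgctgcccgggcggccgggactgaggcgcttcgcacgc
Rpl27: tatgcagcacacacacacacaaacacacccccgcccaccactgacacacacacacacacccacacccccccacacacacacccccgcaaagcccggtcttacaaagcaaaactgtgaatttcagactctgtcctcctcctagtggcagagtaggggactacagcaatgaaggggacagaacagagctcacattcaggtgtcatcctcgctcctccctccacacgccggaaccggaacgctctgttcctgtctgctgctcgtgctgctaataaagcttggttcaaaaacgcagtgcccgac
Cdkn1b: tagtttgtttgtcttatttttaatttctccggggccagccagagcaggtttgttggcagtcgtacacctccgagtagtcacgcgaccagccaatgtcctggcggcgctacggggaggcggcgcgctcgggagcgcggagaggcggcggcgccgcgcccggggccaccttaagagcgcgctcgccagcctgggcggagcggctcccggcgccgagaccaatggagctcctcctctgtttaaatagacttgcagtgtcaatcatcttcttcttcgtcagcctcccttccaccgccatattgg

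These windows differ widely in composition. The Tuba1b and Fkbp5 promoters were 72.7% and 70.7% GC with 39 and 32 CpGs, and that of Mertk 66% with 14. The Rpl27 window was lower, at 55.7% GC and 11 CpGs, with runs of alternating C and A. Cdkn1b, under a closed peak, had 62% GC and 30 CpGs, so a CpG-rich promoter without the core occurred among closed genes as well.

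Head-to-head gene pairs were common under opened peaks. Of 702 opened TSSs, 92 (13.1%, 10.8 to 15.8) had a coding TSS of the opposite strand within 1 kb in divergent orientation, against 6 of 86 closed TSSs (6.98%, 3.24 to 14.4), 6.97% of all coding genes and 3.85% of the TSSs in shared ZBT-OE SSDS peaks.

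Of 919 autosomal miRNA hairpins in RefSeq, 30 lay in opened peaks (3.26%) and 2 in closed peaks (0.218%). The peaks show accessibility of the locus and not miRNA expression. The mature strands of well-known members are shown with the seed, bases 2 to 8, in capitals, since the seed directs target choice. The first 7 come from opened loci and the last pair from the closed locus.
mmu-miR-9-5p: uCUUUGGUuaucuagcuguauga
mmu-miR-25-3p: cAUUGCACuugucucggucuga
mmu-miR-93-5p: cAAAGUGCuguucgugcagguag
mmu-miR-106b-5p: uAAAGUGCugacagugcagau
mmu-miR-193a-3p: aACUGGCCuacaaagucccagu
mmu-miR-365-3p: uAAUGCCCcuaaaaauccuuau
mmu-miR-210-3p: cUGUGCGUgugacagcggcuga
mmu-miR-191-5p: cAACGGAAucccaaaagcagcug
mmu-miR-425-5p: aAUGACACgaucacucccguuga

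Mir9-1, abundant in neural progenitors, lay in an opened peak at chr3:88198651-88244721 (fold enrichment 1.55). Mir25, Mir93 and Mir106b are a cluster inside Mcm7, a subunit of the replicative helicase, and were opened together (chr5:138155650-138194618, 1.38). Of these, miR-93-5p and miR-106b-5p share the seed AAAGUGC, while that of miR-25-3p is AUUGCAC. Mir193a and Mir365-2 shared a peak on chromosome 11 (chr11:79704403-79730018, 2.09), and the hypoxia-induced Mir210 lay at chr7:141193979-141228772 (1.55). Mir191 and Mir425 were closed together with Ndufaf3 and Dalrd3 (chr9:108560302-108571522, 1.97). Over annotated genes of every type, 1232 of 51229 were under opened and 306 under closed peaks. Annotated rRNA copies went the other way, with 3 opened and 14 closed of 321. Such copies are repeated, so their peaks are uncertain.

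The peaks were last compared with the knockdown cohort, which was not used to choose them. Its 4 lists come from other mice, 5 samples to a list. They cover mice with a GFP control vector, unstressed or after chronic social defeat stress (CSDS), and mice with a vector for a microRNA against Zbtb7a (Zbt-KD), again unstressed or after CSDS. Opened peaks overlapped these lists 6.63%, 6.63%, 6.90% and 5.57% of the time in that order, and closed peaks 28.1%, 29.8%, 30.3% and 28.1%. Shared ZBT-OE SSDS peaks, which are wider and so meet other peaks more easily, were present at 71.0% to 79.1%. The 4 lists cover 5.85%, 6.86%, 6.99% and 7.14% of the autosomes, and their median peak widths run from 1976.5 to 41306 bp. Lists of such unlike form meet other peaks at unlike rates, so no effect of knockdown or chronic stress was read from these shares.

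In all, 46 opened peaks (12.2%, 9.27 to 15.9) occurred in at least 1 knockdown list, against 181 closed peaks (50.8%, 45.7 to 56.0) and 84.5% of the shared ZBT-OE SSDS peaks. The 331 opened peaks found in no other list were those rich in genes, and 251 of them covered a TSS (75.8%, 70.9 to 80.1), compared with 13 of the 46 that recurred (28.3%, 17.3 to 42.5). Closed peaks were TSS-poor in both classes, at 46 of 175 (26.3%) and 20 of 181 (11.0%). Those 331 peaks were thus seen in the ZBT-OE SSDS list alone of the 6. Since that list is also the only one from that group, its virus and any feature of its libraries or peak calls cannot be told apart.

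**Figure D5:**
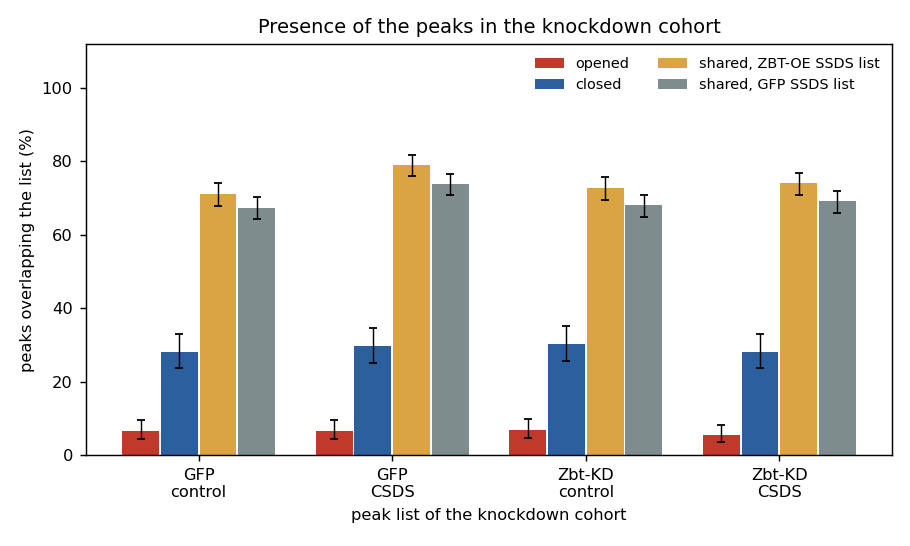
Percentage of opened, closed and shared peaks (y axis) that overlap each of the 4 peak lists of the knockdown cohort (x axis), with 95% Wilson intervals as error bars. Opened peaks lie between 5.57% and 6.90% in all 4 lists, closed peaks between 28.1% and 30.3%, and shared peaks of the ZBT-OE SSDS list at 71.0% or more.

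The rule has a threshold of 1 bp, and few peaks lay near it. The opened peak closest to a GFP SSDS peak was 8949 bp away and the closest closed peak 6432 bp from a ZBT-OE SSDS peak, whereas the smallest overlap that made a peak shared was 56 bp. Median distances were 694.876 kb for opened and 142.926 kb for closed peaks. When both lists were brought to the scale of the wider one, by joining neighbours and dropping peaks under 20269 bp, the opened peaks came to 424 with 67.5% over a TSS, and the closed peaks to 107 with 21.5%. At that scale the coding genes under closed peaks numbered 60 instead of 154 and their TSSs per Mb were 4.61 instead of 8.04, so the closed counts depend on the narrow peaks of the GFP SSDS list.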

How the data were processed

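Peak lists of mouse OFC astrocyte ATAC-seq were used as deposited, 1 per group of 6 samples for ZBT-OE SSDS and GFP SSDS and 1 per group of 5 for the knockdown groups, 32 samples in all. Reads had been mapped by the authors with HISAT2 (mm10), who kept unique and non-duplicate reads, called peaks with MACS2 at a false discovery rate and annotated each to a nearby gene. How samples of a group were combined, and what set the peak widths, is not given in the sources used here. Each deposited peak carries a fold enrichment (a ratio to local background), a q-value and a distance to the nearest TSS. Read depth is unknown, since the lists hold no counts.

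Peaks on chromosomes 1 to 19 were compared, leaving out 218 ZBT-OE SSDS and 265 GFP SSDS peaks on sex chromosomes and scaffolds. The lists covered 225.633 Mb (9.16%) and 217.594 Mb (8.84%) of the autosomes. Genes came from GENCODE M21 gene models, with the 5′ end of the gene as TSS. GC content and masked sequence came from GRCm38.p6, and promoters and miRNAs from RefSeq. Shares have 95% Wilson and differences 95% Newcombe intervals, which cover counting error over peaks only, and no hypothesis was tested because each group has 1 list. Python 3.11.15, pandas 2.3.3 and statsmodels 0.14.6 were used, and the overlap and gene-cover steps were tested on simulated data, where 4 of 4 known quantities were recovered.

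Genes were named by a rule: those with a TSS in the 8 strongest TSS-covering peaks and in the 6 peaks with most TSSs in each direction, genes of 50 kb or more covered over 90%, covered members of the gene lists, and genes the study discusses. Other genes of dense stretches were picked after their values were seen. The peaks, the 29 gene lists and the rule were chosen with earlier results of these data known, and 3 further lists were added after the values were seen. Alternatives varied the overlap, distance, fold enrichment, q-value, width, scale and gene set.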

Additional observations from a re-analysis of the deposited data

How the results depend on the processing

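Over 7 alternative settings, 39 of 52 recomputed values stayed within the limits set for no change and 13 moved. Comparing only the upper 50% of each list by fold enrichment gave 131 opened and 148 closed peaks. A TSS lay in 84.7% and 31.1% of them, and 325 coding genes were under opened peaks. These are not subsets of the main sets, since a peak whose counterpart was dropped from the other list no longer counts as shared. Keeping only closed peaks at least as wide as the narrowest ZBT-OE SSDS peak left 132 of them over 57 genes. Merging both lists at that scale gave 107 closed peaks over 60 genes, 14.02% of them on the 5 gene-richest autosomes. With all annotated genes in place of coding genes, a TSS lay in 80.1% of opened and 35.7% of closed peaks, and closed peaks covered 306 genes. Opened peaks covered a TSS more often than closed peaks under each of the 7 settings. The cause of these moves was not tested beyond what each setting removes or adds. No paired analysis was possible because the lists are per group and hold no value for a single sample, and for the same reason no replicate could be left out. The lists carry no read counts, so the depth behind a missing peak is unknown.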
